A study of Mus musculus with 6 samples.

Results

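NF-kappaB (nuclear factor kappa B) is a family of dimeric transcription factors, and 10 of its core genes were followed here in mouse neuroblastoma cells given an siRNA against a circular RNA. They are the 5 subunit genes Nfkb1, Nfkb2, Rela, Relb and Rel, the inhibitor genes Nfkbia and Nfkbib, and the kinase genes Chuk, Ikbkb and Ikbkg. They were chosen by gene symbol from the 55385 genes of the deposited table, and all 10 were found as single rows. All 10 also reached the mean of 1 FPKM (fragments scaled to transcript length and to the mapped fragments of the library) that was set for testing, as did 12974 genes in all.

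The cells were Neuro2A, an established mouse neuroblastoma line that the labels call neuroblast. One group was transfected with an siRNA (small interfering RNA) against circCpsf6, named si-circCpsf6 (n = 3), and the other with the comparison siRNA si-NC (n = 3), both at 100 nM. The circle is named for Cpsf6, the gene that hosts it, and since the table has 1 value per gene its own level is not analysed here. The summed value of Cpsf6 was 10.65, 15.06 and 14.5 FPKM in si-circCpsf6 and 14.09, 14.5 and 15.2 FPKM in si-NC (limma adjusted p = 0.688), which does not check the loss of the circle. The labels give neither the time after transfection nor the siRNA sequences, and they do not say that replicates were separate cultures. The p-values therefore rest on how far these libraries differ among themselves, and part of that may be technical.

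In resting cells, IkB proteins hold NF-kappaB dimers in the cytoplasm. The IKK complex phosphorylates IkB, which is then ubiquitinated and degraded, and the freed dimers move to the nucleus. Among the genes that they switch on is Nfkbia itself, so the pathway makes its own inhibitor. Other known NF-kappaB targets include Nfkb2, Relb and Rel, and in neurons the pathway has been tied to survival and plasticity.

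Between 12671 and 13080 genes reached 1 FPKM in a library. Of 17 sympathoadrenal neuroblast markers, 16 averaged at least 1 FPKM. Their summed FPKM was 1953 to 2190 in si-circCpsf6 and 2788 to 3790 in si-NC, with Chga called lower (limma adjusted p = 0.0335). The largest part of that gap was Chgb, at 426 ± 211 and 1632 ± 510 FPKM in si-circCpsf6 and si-NC (SD, n = 3 each, limma adjusted p = 0.065). Other markers lay the other way, such as Prph at 757 ± 150 and 572 ± 83.9 FPKM and Mycn at 22.3 ± 2.56 and 12.7 ± 5.996 FPKM in si-circCpsf6 and si-NC, neither of them called. The part of these differences in the members' values was not tested. Macrophage markers summed to between 2.37 and 10.48 FPKM in si-circCpsf6 and to between 2.37 and 12.4 FPKM in si-NC. Of these 11 markers only Lyz2 averaged at least 1 FPKM, and it was highest in replicate 1 of each group, at 7.47 FPKM in si-circCpsf6 and 8.92 FPKM in si-NC. The pan-leukocyte gene Ptprc was at most 0.02 FPKM. The fibroblast marker Col1a1 was, like Lyz2, highest in replicate 1 of each group, at 3.69 FPKM in si-circCpsf6 and 4.53 FPKM in si-NC. The libraries si-circCpsf6 replicate 1 and replicate 2 lay farthest apart on the second principal component (26.5 and -32.3), which held 22.9% of the variance. Within that group, Nfkbia, Relb and Nfkb2 also differed most between these libraries, each higher in replicate 1. Nfkb1 did so in the opposite direction, at 0.99 FPKM in replicate 1 and 2.11 FPKM in replicate 2.

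None of the members passed the test between si-circCpsf6 and si-NC. Of the 10 genes, 9 had a log2 fold change below 0, as had 52.8% of all tested genes, and only Rel lay above 0, as did 47.2% of all tested genes. The median log2 fold change was -0.34 for the members and -0.02 for all tested genes. With limma on log2(FPKM + 1) and Benjamini-Hochberg adjustment over all tested genes, an adjusted p under 0.05 was reached by 0 of 10 members, beside 1.69% of all tested genes (117 higher and 102 lower). At an unadjusted p under 0.05, 5 members were lower and 0 were higher, beside 10.1% and 10.2% of all tested genes (20.3% in either direction). The 3 si-circCpsf6 values all lay below the 3 si-NC values in 4 members (14.0% of all tested genes) and all above them in 1 member (12.8%), beside 26.9% of tested genes in either direction. A log2 fold change of -1 or less was seen in 2 members, Nfkb1 and Nfkbia, and in 1.05% of tested genes. In the authors' deposited table, 2 members, Nfkb1 and Nfkbia, were marked significant and lower, as were 1.9% of the tested genes (4.75% in either direction), with fold changes of 0.36 and 0.41. In bulk RNA, fewer cells with a transcript and less of it per cell cannot be told apart. The count of called genes depended on the libraries kept: with 1 library left out, 1 to 43 genes were called higher and 2 to 44 lower.

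**Figure D1:**
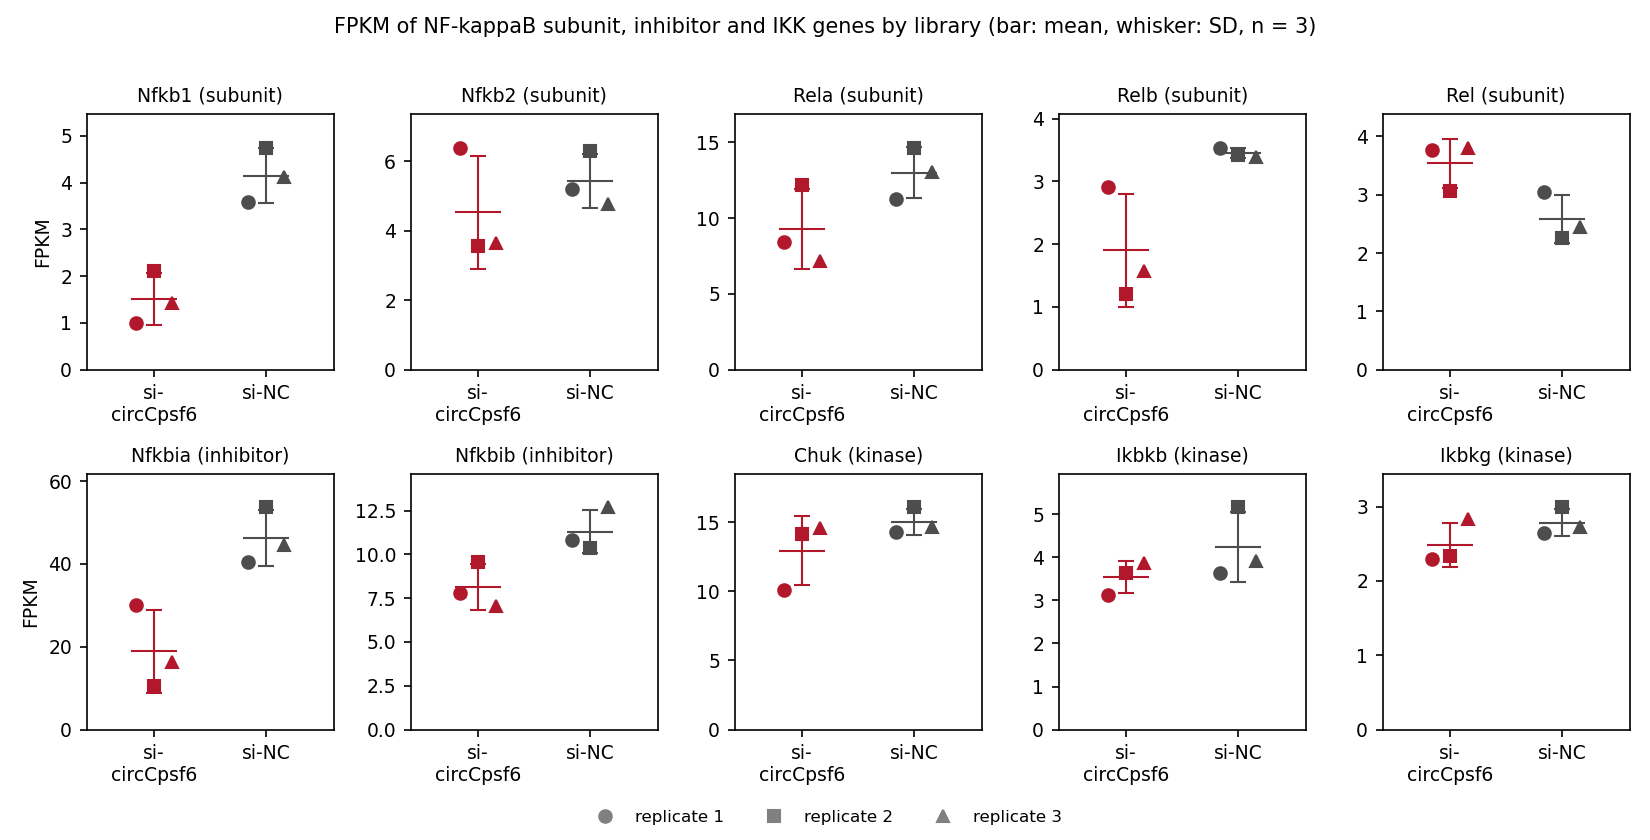
FPKM of the 10 members in each library, with si-circCpsf6 at the left and si-NC at the right of each panel. Symbols mark the replicate, the horizontal bar is the mean and the whisker the SD (n = 3), and each vertical axis starts at 0. The groups are apart for Nfkb1, Relb, Nfkbia and Nfkbib (si-circCpsf6 lower) and for Rel (si-circCpsf6 higher).

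Promoters are shown for the members in which the kappaB consensus, the sequence bound by NF-kappaB dimers, was found, because self-regulation is a known feature of the family. Windows from 250 bases before to 50 bases after each RefSeq start (GRCm38.p6) were searched on both strands with the 10-base consensus, and windows of 7 members were matched by symbol. Nfkb1, Relb and Ikbkb were not searched. A match was found in Nfkbia, Nfkb2 and Rel (3 of 7 genes), beside 6.35% of 8860 tested genes with a window and 4.51% of all 32851 windows. In the sequences, capitals mark the matches, and overlapping matches form 1 run of capitals. The windows are chr12:55492598-55492897 (minus strand) for Nfkbia, chr19:46304487-46304786 (plus strand) for Nfkb2 and chr11:23770920-23771219 (minus strand) for Rel.
Nfkbia: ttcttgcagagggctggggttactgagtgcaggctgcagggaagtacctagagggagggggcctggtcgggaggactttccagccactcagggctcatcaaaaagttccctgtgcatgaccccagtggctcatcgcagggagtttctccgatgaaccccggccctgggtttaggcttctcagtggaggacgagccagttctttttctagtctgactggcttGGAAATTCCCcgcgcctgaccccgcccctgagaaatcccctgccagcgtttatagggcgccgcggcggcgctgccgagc
Nfkb2: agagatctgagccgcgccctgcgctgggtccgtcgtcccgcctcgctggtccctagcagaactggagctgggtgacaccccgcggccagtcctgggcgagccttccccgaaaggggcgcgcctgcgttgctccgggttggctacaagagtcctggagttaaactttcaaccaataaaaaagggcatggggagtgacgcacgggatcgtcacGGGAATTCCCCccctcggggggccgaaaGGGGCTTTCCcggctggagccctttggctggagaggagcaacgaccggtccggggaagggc
Rel: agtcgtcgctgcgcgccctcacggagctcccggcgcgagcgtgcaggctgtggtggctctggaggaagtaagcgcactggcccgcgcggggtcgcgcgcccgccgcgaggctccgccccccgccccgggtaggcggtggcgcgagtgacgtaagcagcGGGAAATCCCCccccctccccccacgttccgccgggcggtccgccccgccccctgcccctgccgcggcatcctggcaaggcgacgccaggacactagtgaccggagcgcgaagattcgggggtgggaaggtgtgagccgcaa
The match in Nfkbia began at position -29 relative to its start. In Nfkb2, whose other two windows also held matches, they began at -39, -38 and -11, and in Rel at -92 and -91. A match describes the letters of the window and does not show a bound site.

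Nfkb1 encodes p105, the precursor of the DNA-binding subunit p50, which lacks a transactivation domain and pairs with RelA in the best known dimer. The gene (ENSMUSG00000028163) lies on chromosome 3, 135584655 to 135691547, minus strand (GRCm38). It had 0.99, 2.11 and 1.43 FPKM in si-circCpsf6 replicates 1 to 3, against 3.58, 4.75 and 4.11 FPKM in si-NC replicates 1 to 3. The highest si-circCpsf6 value was below the lowest si-NC value. The means were 1.51 ± 0.56 and 4.15 ± 0.59 FPKM (SD, n = 3 each), a ratio of 0.364. On the log2(FPKM + 1) scale, which understates the difference at such levels, the difference was -1.05 ± 0.20 (log2 fold change, SE). Its limma adjusted p of 0.0502 narrowly missed the threshold, although Nfkb1 had the smallest p of the members and ranked 233 among all tested genes. With each library centred on its median the adjusted p was 0.0458, and with quantile normalization it was 0.0461, both past the threshold. Over all alternatives its adjusted p lay between 0.0458 and 0.201.

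Rela encodes RelA (p65), the main transactivating subunit (chromosome 19, 5637483 to 5648130, plus strand). It was the most abundant subunit mRNA per length in both groups, with 8.43, 12.22 and 7.2 FPKM in si-circCpsf6 and 11.27, 14.66 and 13.05 FPKM in si-NC. The groups overlapped through si-circCpsf6 replicate 2, which was above si-NC replicate 1. Its log2 fold change was -0.47 ± 0.20 (SE), with a limma adjusted p of 0.245.

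Relb encodes the partner of p52 in the alternative pathway (chromosome 7, 19606217 to 19629438, minus strand). It had 2.91, 1.21 and 1.58 FPKM in si-circCpsf6, against 3.54, 3.42 and 3.39 FPKM in si-NC. The si-NC libraries were nearly alike and the si-circCpsf6 libraries were spread below them, with replicate 1 nearest. The log2 fold change was -0.66 ± 0.22 (SE), with a limma adjusted p of 0.16.

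Nfkb2 encodes p100, an IkB-like precursor that is cut to the subunit p52 (chromosome 19, 46304320 to 46312385, plus strand). It had 6.39, 3.55 and 3.63 FPKM in si-circCpsf6, against 5.19, 6.3 and 4.78 FPKM in si-NC. Replicate 1 of si-circCpsf6 was the highest of the 6 libraries and the other two si-circCpsf6 libraries were the lowest, so the groups overlapped. The log2 fold change was -0.25 ± 0.22 (SE), with a limma adjusted p of 0.565. With a library left out it ranged from -0.48 (without si-circCpsf6 replicate 1) to -0.13 (without si-circCpsf6 replicate 2). Psd, a gene that overlaps Nfkb2 on the opposite strand, had 12.99, 9.33 and 9.27 FPKM in si-circCpsf6 and 11.9, 13.94 and 11.69 FPKM in si-NC. Without strand information their reads cannot be told apart where the genes overlap.

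Rel encodes c-Rel, a transactivating subunit best known from lymphocytes (chromosome 11, 23736847 to 23770970, minus strand). It was the only member with a higher mean in si-circCpsf6, with 3.76, 3.06 and 3.81 FPKM, against 3.04, 2.26 and 2.45 FPKM in si-NC. The groups were apart, though only narrowly, since the lowest si-circCpsf6 value and the highest si-NC value differed in the second decimal. The log2 fold change was 0.34 ± 0.16 (SE), with a limma adjusted p of 0.265. Lymphocyte markers summed to 6.13 to 12.17 FPKM in si-circCpsf6 and 3.77 to 6.14 FPKM in si-NC, mostly from Lck, with Cd3e and Ms4a1 listed at 0 in all libraries. Of the 3 genes with a kappaB match among the 7 searched, Nfkbia and Rel were thus apart in opposite directions and Nfkb2 overlapped.

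The makeup of the subunit mRNAs was compared next, with all 5 subunit genes summed per library. Nfkb1 made up 4.40%, 9.53% and 8.10% of the summed subunit FPKM in si-circCpsf6, against 13.4%, 15.1% and 14.8% in si-NC. For Rel the shares were 16.7%, 13.8% and 21.6% in si-circCpsf6, against 11.4%, 7.20% and 8.82% in si-NC. Both shares were apart between the groups, in opposite directions. Rel was 3.80, 1.45 and 2.66 times Nfkb1 in si-circCpsf6 and 0.849, 0.476 and 0.596 times Nfkb1 in si-NC, so the order of the pair was turned round in all 3 libraries. The share of Rela overlapped, at 37.5% to 55.2% in si-circCpsf6 and 42.3% to 47.0% in si-NC. These shares and the Rel to Nfkb1 ratio were not planned in advance. They restate the values given above for each gene, describe the libraries and were not tested.

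**Figure D2:**
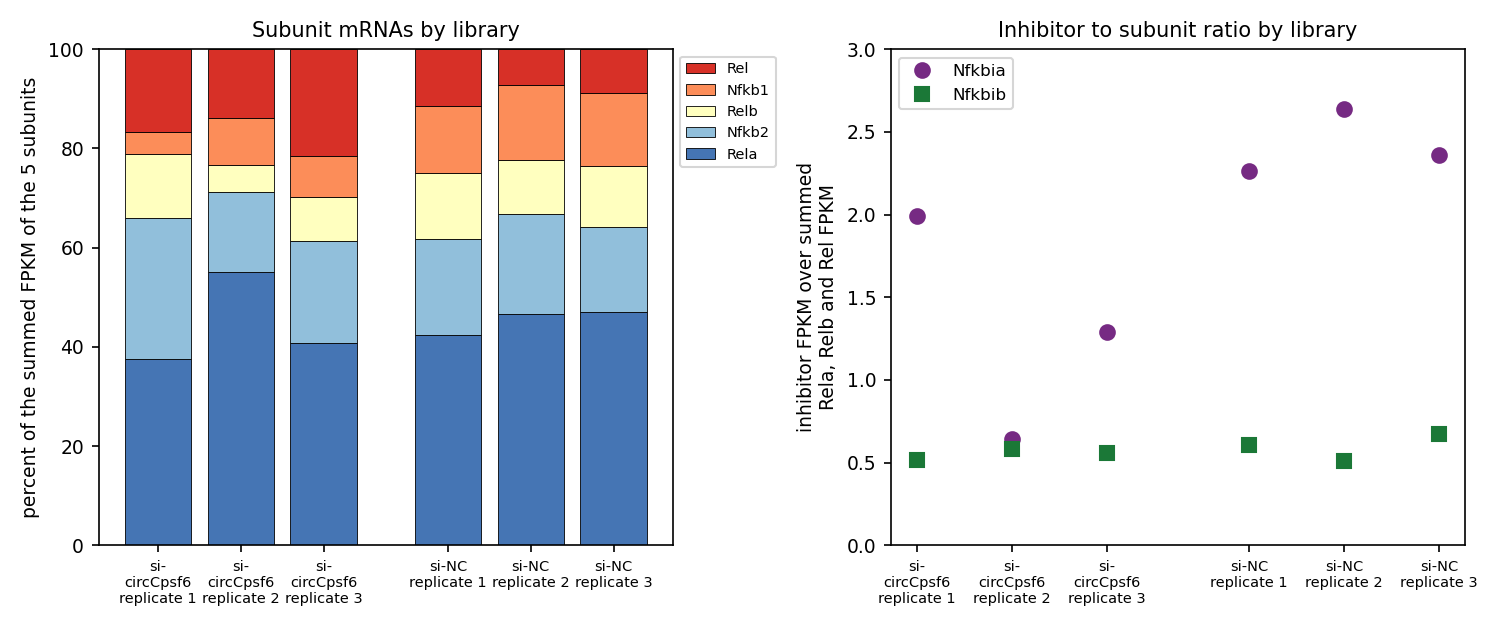
Left, percent of the summed FPKM of the 5 subunit genes that each contributed, by library. Right, Nfkbia and Nfkbib FPKM divided by the summed FPKM of Rela, Relb and Rel, by library. Si-circCpsf6 libraries stand at the left of each panel. The Nfkb1 share is lower and the Rel share higher in each si-circCpsf6 library, and the Nfkbia ratio spreads from 0.641 to 1.99 in si-circCpsf6 against 2.26 to 2.64 in si-NC.

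Nfkbia encodes IkB-alpha, the inhibitor that is degraded and remade within the canonical response. The gene (ENSMUSG00000021025) lies on chromosome 12, 55489410 to 55492647, minus strand (GRCm38), and it had the highest mean FPKM of the members in both groups. It had 30.04, 10.57 and 16.24 FPKM in si-circCpsf6 replicates 1 to 3, against 40.42, 53.67 and 44.64 FPKM in si-NC replicates 1 to 3. All si-circCpsf6 values were below all si-NC values, and si-circCpsf6 replicate 1 stood closest to si-NC. The means were 18.95 ± 10.0 and 46.2 ± 6.77 FPKM (SD, n = 3 each), a ratio of 0.41. The log2 fold change was -1.35 ± 0.33 (SE), and did not pass the test (limma adjusted p = 0.0858). It was the largest of the members in size on this scale, while with a pseudocount of 0.1 FPKM Nfkb1 was at -1.45 and Nfkbia at -1.40. Without si-circCpsf6 replicate 1 it was -1.73 and passed (limma adjusted p = 0.035), and without si-circCpsf6 replicate 2 it was -1.02 (limma adjusted p = 0.129). Replicate 1 is also the library of its group with the most Lyz2 and the most Col1a1, a fibroblast marker, while Ptprc was at most 0.02 FPKM there as elsewhere. The part of these differences in Nfkbia was not tested. Without si-NC replicate 1, the si-NC library with the most Lyz2, the log2 fold change was -1.44 (limma adjusted p = 0.17). Over all alternatives the adjusted p of Nfkbia lay between 0.035 and 0.258.

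Nfkbib encodes IkB-beta, a slower inhibitor of the same dimers (chromosome 7, 28758251 to 28767512, minus strand). It had 7.8, 9.59 and 7.04 FPKM in si-circCpsf6, against 10.83, 10.34 and 12.68 FPKM in si-NC. The groups were apart by less than 1 FPKM. The log2 fold change was -0.43 ± 0.15 (SE), with a limma adjusted p of 0.175. Sirt2, which overlaps Nfkbib on the opposite strand, had 6.89 to 12.36 FPKM in si-circCpsf6 and 5.89 to 8.31 FPKM in si-NC.

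Both inhibitors were compared per length with the summed FPKM of Rela, Relb and Rel, a sum that leaves out Nfkb1 and Nfkb2. Nfkbia was 1.99, 0.641 and 1.29 times the summed Rela, Relb and Rel FPKM in si-circCpsf6, against 2.26, 2.64 and 2.36 times in si-NC. This ratio was lower in each si-circCpsf6 library. The ratio for Nfkbib was 0.517, 0.582 and 0.559 in si-circCpsf6 and 0.607, 0.508 and 0.671 in si-NC, and the groups overlapped. Set against Rela alone, Nfkbia was at 3.56, 0.865 and 2.26 in si-circCpsf6 and at 3.59, 3.66 and 3.42 in si-NC, so si-circCpsf6 replicate 1 lay within the si-NC range. The ratios were not tested.

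Within si-circCpsf6, the members did not vary together. Nfkbia, Relb and Nfkb2 were each highest in replicate 1 and lowest in replicate 2. Nfkb1 was highest in replicate 2 and lowest in replicate 1, and Rela was also highest in replicate 2. All 3 IKK genes were lowest in replicate 1 and highest in replicate 3.

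None of the genes of the IKK complex passed the test. Chuk encodes the catalytic subunit IKK-alpha (chromosome 19, 44073335 to 44107480, minus strand), and had 10.09, 14.11 and 14.59 FPKM in si-circCpsf6, against 14.3, 16.06 and 14.67 FPKM in si-NC. Ikbkb encodes IKK-beta, the main IkB kinase (chromosome 8, 22659212 to 22706589, minus strand), and had 3.13, 3.64 and 3.86 FPKM in si-circCpsf6, against 3.63, 5.16 and 3.91 FPKM in si-NC. Ikbkg encodes NEMO, the regulatory scaffold (chromosome X, 74393290 to 74453854, plus strand), and had 2.29, 2.33 and 2.83 FPKM in si-circCpsf6, against 2.64, 2.99 and 2.72 FPKM in si-NC. The groups overlapped in all 3 genes, with log2 fold changes of -0.22, -0.20 and -0.12 and limma adjusted p values of 0.503, 0.54 and 0.679. With a library left out, Chuk ranged from -0.31 (without si-circCpsf6 replicate 3) to -0.06 (without si-circCpsf6 replicate 1), and Ikbkb from -0.28 (without si-NC replicate 1) to -0.07 (without si-NC replicate 2). G6pdx, which overlaps Ikbkg on the opposite strand, had 38.23 to 70.03 FPKM in si-circCpsf6 and 35.34 to 55.26 FPKM in si-NC, so the values of Ikbkg, a gene at a far lower level, are uncertain. The other genes that overlap a member are AC114539.1 (Nfkb2), at 1.52 to 3.17 FPKM in si-circCpsf6 and 1.89 to 2.23 FPKM in si-NC, and Ccer2 (Nfkbib), Gm15346 (Ikbkb) and Gm43430 (Nfkb1), none above 0.29 FPKM in any library.

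Ranked by mean FPKM, Nfkbia stood first in both groups, followed by Chuk, Rela and Nfkbib in that order. In si-circCpsf6 the ranges of Nfkbia and Chuk overlapped, while in si-NC they were apart. The ranges of Chuk and Rela overlapped in both groups, as did those of Rela and Nfkbib. Nfkb1 ranked 10 of 10 in si-circCpsf6 and 7 of 10 in si-NC, and Rel shared rank 6 with Ikbkb in si-circCpsf6, where their means were equal, and ranked 10 of 10 in si-NC. At these lower ranks Relb and Nfkb1 overlapped in si-circCpsf6, and Ikbkg and Rel in si-NC.

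**Figure D3:**
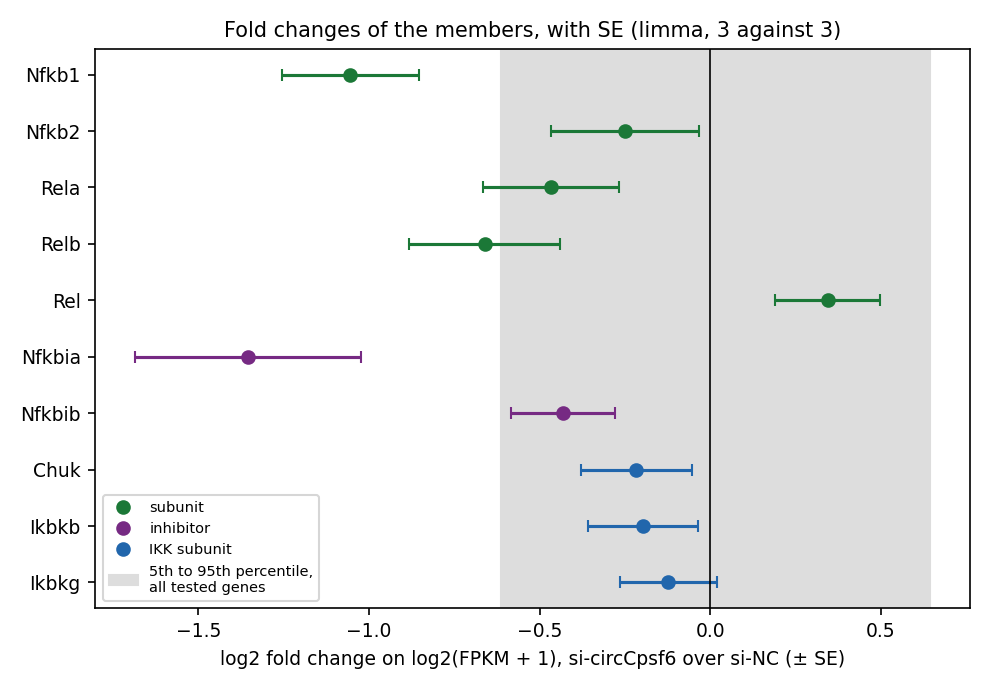
Log2 fold change of each member (si-circCpsf6 over si-NC, on log2(FPKM + 1)) with its standard error, coloured by role. The grey band spans the 5th to 95th percentile of all tested genes, -0.61 to 0.64. Nfkb1, Relb and Nfkbia lie below the band, and the IKK genes lie near 0.

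A 7-base word, GCAGAAT, was looked for in the longest annotated 3' UTR (untranslated region) of each member, because it had been picked in an earlier search of these same libraries. Its medians are therefore a description and support nothing. The median log2 fold change was -0.13 for 1086 tested genes with the word and -0.01 for 9544 without it. For the members the order was the other way, with a median of -0.17 with the word and -0.56 without it. It stood in 4 of the 10 members, Chuk, Ikbkg, Nfkbib and Rel, beside 4 of the 54 tested pathway genes described further on (7.41%) and 10.2% of 10630 tested genes. The members' UTRs with a copy were 763 (Nfkbib), 1236 (Chuk), 5418 (Rel) and 5495 bases long (Ikbkg). Those without a copy were 336 (Relb) to 1622 bases long (Ikbkb). The shares were not adjusted for UTR length. The copies are shown with up to 10 flanking bases on each side, the word in capitals.
Chuk: gagttggttaGCAGAATgactcgacac
Ikbkg: cttttcttttGCAGAATtacttaagct
Nfkbib: tggaagtggaGCAGAATgcccggtgaa
Rel: gaacatcatgGCAGAATttaaacctca
They lie at chr19:44074513-44074519, chrX:74450853-74450859, chr7:28758816-28758822 and chr11:23738132-23738138 in GRCm38, read on the strand of the gene. Nfkbia, Nfkb1 and Relb had no copy in the 3' UTR searched. Whether the word bears on the level of any member was not tested.

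Other genes of the pathway were read from lists of receptors, adaptors, ubiquitin enzymes and targets. Of 98 such genes, 54 were tested. Of these, 0 were called higher and 2 were called lower (0.902% and 0.786% of all tested genes), the median log2 fold change was -0.04, and 8 were higher and 10 lower at an unadjusted p under 0.05, beside 10.2% and 10.1% of all tested genes. The authors' deposited table marked 7 of the 98 as significant, beside 1.72% of all 55385 genes and 4.75% of the tested genes. They were Ripk1, Tnip1, Tnfaip3 and Cxcl10, lower in si-circCpsf6, and Irak2, Lif and Cflar, higher in si-circCpsf6. Lif, Cflar and Cxcl10 were below the mean of 1 FPKM and were not tested here.

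Ripk1, the kinase that links TNF receptors to IKK, fell in si-circCpsf6. It had 0.49, 1.00 and 0.52 FPKM in si-circCpsf6, against 2.98, 3.98 and 2.79 FPKM in si-NC, and its si-circCpsf6 mean of 0.67 FPKM was below that of every member. The ratio of the means was 0.206. On the log2(FPKM + 1) scale, which understates the difference at such levels, it was -1.35 ± 0.19 (SE), with a limma adjusted p of 0.0287, and with a pseudocount of 0.1 FPKM it was -2.17 (0.0354). The call was lost when any 1 library was left out, with limma adjusted p values from 0.0565 (without si-circCpsf6 replicate 1) to 0.135 (without si-NC replicate 3), while the log2 fold change stayed between -1.49 and -1.23.

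Tnip1, a ubiquitin-binding partner of A20 that restrains the pathway and is itself an NF-kappaB target, also fell. It had 10.6, 7.91 and 8.22 FPKM in si-circCpsf6, against 16.19, 19.52 and 18.51 FPKM in si-NC. This is a log2 fold change of -0.95 ± 0.15 (SE), with a limma adjusted p of 0.0335. It stayed called without si-circCpsf6 replicate 1 (limma adjusted p = 0.035) and was not called when any other library was left out (0.0784 to 0.163). Of the 7 tested deubiquitinases and A20 partners, 4 had a log2 fold change below 0 and 3 above it, with a median of -0.04 and Tnip1 as the single call.

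Among 5 tested receptor genes all lay above 0, with a median log2 fold change of 0.54 and 0 called. With no filter on low values, which adds receptors below the mean of 1 FPKM, the median of the list was 0.10. Tnfrsf1a, the main TNF receptor, had 29.28, 29.19 and 26.29 FPKM in si-circCpsf6, against 21.67, 19.31 and 16.67 FPKM in si-NC (limma adjusted p = 0.092). Tnfrsf12a, the TWEAK receptor, had 10.18, 10.86 and 8.2 FPKM in si-circCpsf6, against 6.27, 5.78 and 4.26 FPKM in si-NC (limma adjusted p = 0.0763). Both receptors were apart between the groups, in the direction opposite to most members. Ngfr, the p75 neurotrophin receptor, was the most abundant of the list and overlapped, at 37.6 ± 8.20 and 25.4 ± 6.78 FPKM in si-circCpsf6 and si-NC (SD, n = 3 each).

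Of 22 tested adaptors and kinases above IKK, 14 had a log2 fold change below 0 and 8 above it (median -0.09), and Ripk1 was the single call. Tab2, which couples ubiquitin chains to the kinase TAK1 and was the most abundant of the list, had 25.03, 24 and 22.26 FPKM in si-circCpsf6, against 28.92, 34.29 and 29.77 FPKM in si-NC (limma adjusted p = 0.165). Of these 22 genes, 5 were apart and lower and 3 apart and higher, beside 14.0% and 12.8% of all tested genes. Irak2 and Map3k14, both apart and higher, were named after their values were seen. Irak2, a kinase of interleukin-1 receptor signalling, had 1.73, 2.62 and 1.24 FPKM in si-circCpsf6, against 0.44, 0.93 and 0.35 FPKM in si-NC (limma adjusted p = 0.111). Map3k14, the kinase NIK of the alternative pathway, had 1.66, 1.72 and 1.55 FPKM in si-circCpsf6, against 1.03, 0.89 and 0.96 FPKM in si-NC (limma adjusted p = 0.169).

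In the ubiquitin ligase that marks IkB for degradation, 0 of 6 genes were called and the median log2 fold change was -0.31. Cul1, its scaffold, had 11.21, 21.14 and 17.7 FPKM in si-circCpsf6, against 27.17, 28.16 and 30.31 FPKM in si-NC (limma adjusted p = 0.109). Ube2d3, a conjugating enzyme, had 3.6, 3.37 and 3.38 FPKM in si-circCpsf6, against 4.46, 5.2 and 5.02 FPKM in si-NC (limma adjusted p = 0.144). Both were apart between the groups. Skp1a, the most abundant of the list, overlapped (limma adjusted p = 0.428).

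Of the other IkB family genes, 0 of 3 tested were called. Nfkbie (IkB-epsilon) had 2.17, 1.85 and 1.72 FPKM in si-circCpsf6 and 3.2, 2.79 and 2.09 FPKM in si-NC, and the groups overlapped (limma adjusted p = 0.323). Nfkbiz and Nfkbid, the nuclear members, had log2 fold changes of -0.02 and -0.04, and both turned above 0 in some fits with a library left out. Of the IKK-related kinases and their adaptors, 0 of 4 were called, with Tbk1 at 15.3 ± 1.22 and 17.9 ± 3.26 FPKM, Azi2 at 9.94 ± 0.32 and 7.91 ± 0.32 FPKM and Tank at 3.93 ± 0.39 and 3.20 ± 0.73 FPKM in si-circCpsf6 and si-NC (SD, n = 3 each).

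**Figure D4:**
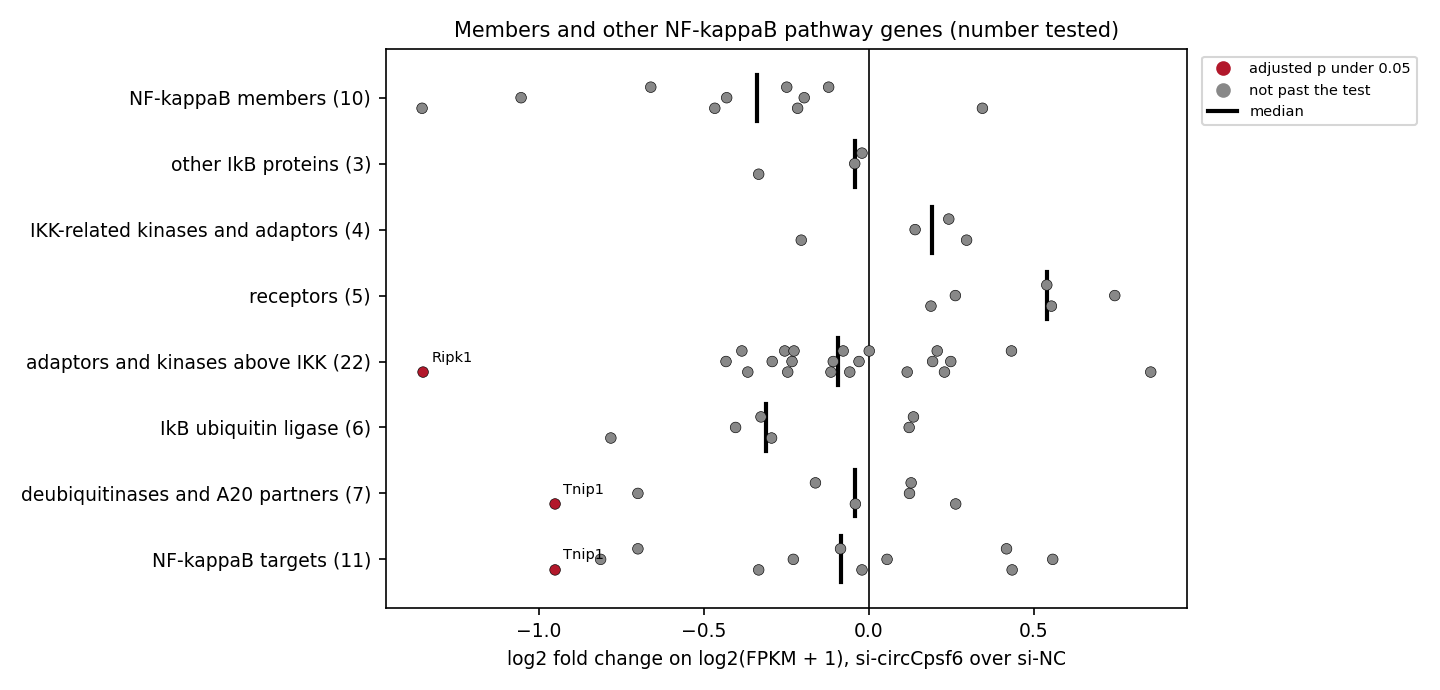
Log2 fold changes (si-circCpsf6 over si-NC, on log2(FPKM + 1)) of the members and of each list of pathway genes, with the number tested in brackets. Each point is a gene, red where the limma adjusted p is under 0.05, and the black bar is the median of the list. Vertical offsets within a list only separate points. The medians run from -0.34 for the members to 0.54 for the receptors, and Ripk1 and Tnip1 are the called genes.

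Of 39 listed NF-kappaB targets, 11 were tested and 28 were below the mean of 1 FPKM. The 10 members are not in this list, although known targets are among them, including Nfkbia, Nfkb2, Relb and Rel. The log2 fold changes of these named genes were -1.35, -0.25, -0.66 and 0.34. For the 11 tested genes of the list the median log2 fold change was -0.09 (7 genes below 0, 4 above), and Tnip1 was the single call. The lowest median of the list over the alternatives was -0.25, in the fit that left out si-NC replicate 2. The highest was 0.01, with no filter on low values. That fit adds listed targets below the mean of 1 FPKM, so 0.01 is not a median of the same 11 genes. The following targets were named after their values were seen. Tnf was at most 0.13 FPKM and Icam1 at most 0.61 FPKM in any library. Il1b and Cxcl2 had 2.55 and 2.6 FPKM in si-circCpsf6 replicate 3, 0.6 and 1.27 FPKM in si-NC replicate 3, and at most 0.08 FPKM elsewhere. Il6 reached 1.71 FPKM in si-circCpsf6 replicate 3, and Cxcl10 reached 2.76 FPKM in si-NC replicate 2. All of these were below the mean of 1 FPKM and were not tested. Irf1, a transcription factor of interferon and cytokine responses, had 6.22, 4.15 and 4.93 FPKM in si-circCpsf6, against 8.96, 11.13 and 8.9 FPKM in si-NC (limma adjusted p = 0.0599). Tnfaip3, which encodes A20, had 0.95, 0.27 and 0.63 FPKM in si-circCpsf6, against 1.29, 2 and 1.52 FPKM in si-NC (limma adjusted p = 0.134). Both were apart and lower in si-circCpsf6. Among the 11 tested targets, 3 were apart and lower and 2 were apart and higher, beside 14.0% and 12.8% of all tested genes. Sod2, mitochondrial superoxide dismutase, had 15.32, 16.05 and 16.07 FPKM in si-circCpsf6, against 11.71, 11.16 and 11.46 FPKM in si-NC (limma adjusted p = 0.094), and Bcl2l1, an anti-apoptotic gene, had 9.24, 10.54 and 7.58 FPKM in si-circCpsf6, against 5.09, 6.75 and 5.75 FPKM in si-NC (limma adjusted p = 0.12). Ier3, the most abundant tested target, overlapped (limma adjusted p = 0.374).

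Genes most like 2 members in pattern were found by the root mean square difference of log2(FPKM + 1), each gene centred on its mean, over the 6 libraries. For Nfkb1 they were Ubqln2 (0.096), Pkd2 (0.1) and Arsb (0.112). For Nfkbia they were Ace (0.168), Dmkn (0.256) and Adm (0.287), each with its highest si-circCpsf6 value in replicate 1 and its lowest in replicate 2. Ace had 3.75, 1.09 and 2.63 FPKM in si-circCpsf6, against 7.26, 7.59 and 7.56 FPKM in si-NC. Since all 6 values of a gene enter the measure, genes that differ between the groups by a like amount are favoured.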

How the data were processed

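The 6 Neuro2A libraries (3 si-circCpsf6 and 3 si-NC) were of mRNA, with groups and replicate numbers taken from the sample titles. Per the labels' protocols, they were made with a kit named for small RNA. The program behind the FPKM and its strand setting are unstated in the sources used here. FPKM per gene and library were deposited with 2 decimals. Beside them the authors' table gives, per the file headers, a fold change (a ratio), its log2, and p-values and q-values from an unnamed test. Bowtie 0.12.2 is listed in the submitters' processing notes, as are mm8 and mm9, none with a role. Positions, overlaps and UTRs come from GENCODE M21 (GRCm38), in which 55144 gene identifiers of the table were found, and promoters come from RefSeq. These positions are of the annotation and not of the authors' alignment.

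Counts behind the FPKM are unknown: within 0.1, only 25.0% to 30.2% of low values of single-exon genes were whole multiples of the best step, so no count test, interval or depth is given. Genes averaging 1 FPKM or more were tested with limma 3.58.1 (R 4.3.3) on log2(FPKM + 1), group as the only term, with an intensity trend and Benjamini-Hochberg adjustment at 0.05. Exact tests were not used, since 0.1 is the smallest p they allow with 3 libraries a group. The fit was also run on simulated data with independent noise in each library, as a check of the code. Such data do not bear on how the calls depend on the libraries kept. Alternatives were other normalizations, filters and a pseudocount, no trend, a replicate block, the authors' q-values and leaving out each library.

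Members and lists were chosen with earlier results of these data known. Pathway genes are named where called, otherwise the 2 with the smallest p of a list, plus its most abundant gene; any others are marked in the text. The likeness rule took the member with the smallest p and the member with the highest mean, and 3 genes for each. Marker lists for other cell types were read in the same libraries: summed FPKM ranged in si-circCpsf6 and si-NC from 5.53 to 11.55 and 2.54 to 10.56 for fibroblast (Pdgfrb called higher), 1.82 to 4.29 and 2.97 to 3.60 for endothelial, 6.13 to 12.17 and 3.77 to 6.14 for lymphocyte (mostly Lck), 0.12 to 1.69 and 0.31 to 0.65 for astrocyte, and 1.09 to 1.43 and 0.49 to 0.80 for epithelial markers. Analysis used Python 3.11.15, numpy 2.4.6, pandas 2.3.3 and matplotlib 3.10.9.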

Additional observations from a re-analysis of the deposited data

How the results depend on the processing

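All 10 members kept their direction in every alternative that tested them. With no filter on low values, 4 genes were called higher and 9 lower, and by the authors' deposited q-values 495 higher and 321 lower. With 1 library left out these counts ranged from 1 to 43 higher and from 2 to 44 lower. The number of members called was 1 with median centring and 1 with quantile normalization (Nfkb1, log2 fold change -1.04 and -1.06), and 0 to 1 with a library left out. Across those fits Nfkbia ranged from -1.73 to -1.02, the member median from -0.41 to -0.28, Nfkbid from -0.157 to 0.085 and Nfkbiz from -0.257 to 0.107, the last pair turning above 0 in 1 and 4 of them (Nfkbid 0.085; Nfkbiz 0.086, 0.107, 0.074 and 0.059). With a mean of at least 5 FPKM required, the median over the members still tested was -0.45. The cause of these differences was not tested, beyond fewer genes or libraries entering a fit.

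The replicate number as a block gave 6 genes higher and 5 lower, and no member was called (Nfkb1 limma adjusted p = 0.0643, Nfkbia 0.117), nor were Ripk1 (0.0541) and Tnip1 (0.0734). Deviations of same-numbered libraries correlated at 0.103, 0.129 and 0.084 across genes, and each library correlated best with its own number, a hint from the data only. The labels do not say what the number marks. Low FPKM, as for Nfkb1 and Relb, carry an unknown counting error.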
